A study of Mus musculus with 10 samples.

Results

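The vascular endothelial growth factor (VEGF) family was followed in mouse hearts 24 h after lipopolysaccharide (LPS), through the 10 genes Vegfa, Vegfb, Vegfc, Vegfd, Pgf, Kdr, Flt1, Flt4, Nrp1 and Nrp2. They were taken by gene name from a table of read counts for 54532 Ensembl genes, and each name matched 1 row. Hearts came from C57BL/6 mice aged 8 weeks. The control group is 5 mice injected with saline, the other group 5 mice 24 h after LPS, the Gram-negative bacterial endotoxin used to provoke septic inflammation. The labels give no genetic change in either group and no sex, dose or batch. They number the libraries within each group without saying that each is a single mouse, which is assumed here. The study's title names TLR4, TRAF6 and TFEB in cardiomyocytes, and the comparison here asks how the heart's VEGF ligands and receptors differ 24 h after LPS.

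VEGF ligands are secreted dimers that bind receptor tyrosine kinases on endothelial cells. VEGF-A, from Vegfa, acts mainly through VEGFR2, from Kdr, which drives endothelial growth, survival and permeability, and it also binds VEGFR1, from Flt1, a high-affinity receptor with weak kinase activity that can act as a decoy. VEGF-B and placental growth factor, from Vegfb and Pgf, bind VEGFR1 alone among the VEGF receptor kinases. VEGF-C and VEGF-D bind VEGFR3, from Flt4, the receptor of lymphatic endothelium, and processed VEGF-C also binds VEGFR2. Neuropilins, from Nrp1 and Nrp2, are co-receptors that also bind class 3 semaphorins. In the heart, Vegfa and Vegfb are known to be made largely by cardiomyocytes and the receptors by endothelium.

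Of the 10 genes, 2 rose and 5 fell in LPS hearts by edgeR's quasi-likelihood test with Benjamini-Hochberg adjustment over all tested genes and a threshold of 0.05. Pgf rose 5.21-fold and Flt4 1.77-fold, while Kdr fell to 0.123 times its saline level and Nrp1, Vegfc and Vegfd to about 0.6 times theirs (0.598, 0.580 and 0.599). Flt1 fell to 0.790 times its saline level. Vegfa, Vegfb and Nrp2 did not pass the threshold. All 10 genes passed the filter on low counts. Of the 13864 genes tested 39.9% passed, 18.9% upward and 21.0% downward, so the change of 7 in 10 members stands against a tissue in which many genes changed. The median log2 fold change was -0.29 over the 10 members and -0.02 over all tested genes. Pgf and Flt4 had LPS libraries that all lay above the saline libraries, which held for 14.3% of tested genes, and Kdr, Flt1 and Vegfd had LPS libraries that all lay below, which held for 14.1%.

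The libraries held 14607969 to 17012372 counts. Saline replicate 5 stood apart from the other saline libraries. Its neutrophil markers summed to 25 CPM (counts scaled to the same library size), where the other saline libraries lay between 1.35 and 4.07 CPM and LPS libraries between 13.7 and 42.1 CPM. Several results are also given with that library left out. Without it the same count of 2 members rose and 5 fell, among 21.0% of all genes rising and 22.9% falling. Cardiomyocyte markers, led by Myh6 and Actc1, summed to 54190 ± 3230 CPM in saline hearts, against 55592 ± 2475 CPM after LPS, and 0 of 12 passed the threshold in edgeR. Of 8 atrial markers 7 were tested, and 1 rose (Tbx5) and 1 fell (Nr2f1), a called share of 28.6% beside 39.9% of all tested genes. The atrial markers summed to 63.4 to 133 CPM in saline and 84.7 to 181 CPM in LPS libraries (two-sided exact permutation p = 0.0952, adjusted p = 0.210 over 11 marker lists). They were led by Nppa at 46.3 and 62.4 CPM and Tbx5 at 17.4 and 23.7 CPM. Bmp10, the untested marker, was at 0 in each saline library and at 1.53 ± 3.18 CPM in LPS libraries. It had 94 reads in all and was at 0 in 6 of the 10 libraries. The part of the atrial markers in the results was not tested. Total count scaling moved the median over all tested genes by -0.27 on the log2 scale, and upper quartile scaling by -0.16, and rising genes were 47.3% of all calls with TMM, 31.1% under the upper quartile and 22.9% under the total count alternative.

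**Figure D1:**
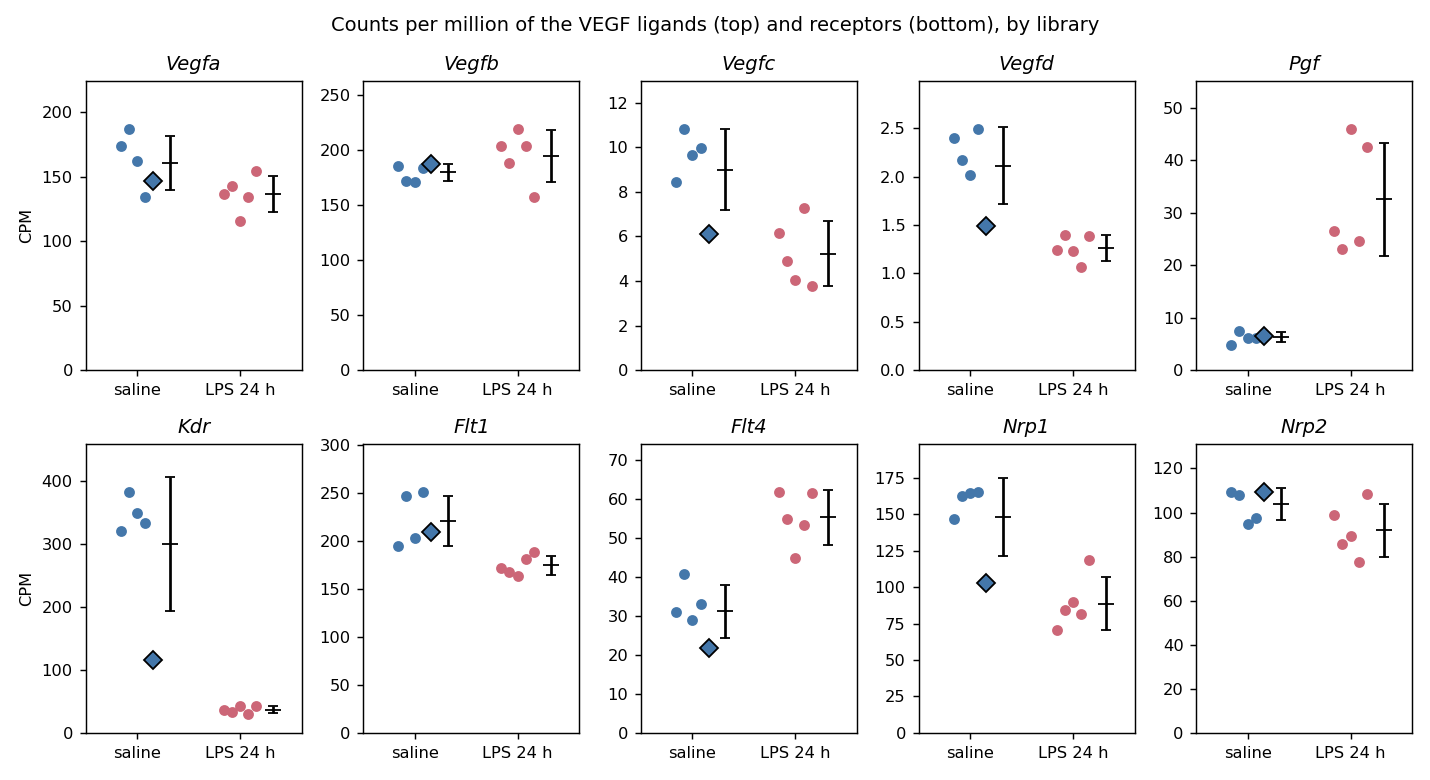
CPM of each VEGF family gene (vertical axes, each from 0) in the 5 saline and the 5 LPS libraries, 1 point per library, with the mean and SD as a bar beside them and saline replicate 5 as a black-edged diamond. Kdr lies between 29.8 and 43.0 CPM in LPS hearts and at 115 CPM or more in saline hearts, and Pgf lies above 23 CPM in each LPS library and below 8 CPM in each saline library.

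Kdr (ENSMUSG00000062960, GRCm38 chromosome 5, 75932827 to 75978458, minus strand) encodes VEGFR2. Its level was 320, 382, 350 and 333 CPM in saline replicates 1 to 4, but 115 CPM in the fifth saline library, against 36.6, 32.6, 43.0, 29.8 and 42.2 CPM in LPS replicates 1 to 5. The LPS libraries lay close together and all below the saline libraries, and saline replicate 5 lay between the groups. The means were 299.97 ± 106 and 36.9 ± 5.82 CPM (mean ± SD, n = 5 in each), and the difference on the log2 scale was -3.02 ± 0.30 (SE; edgeR adjusted p = 3.71e-05). Without saline replicate 5 it was -3.23 (adjusted p = 1.44e-11). Only 83 of 13864 tested genes had a lower log2 fold change than Kdr.

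Flt1 (ENSMUSG00000029648, chromosome 5, 147561604 to 147726011, minus strand) encodes VEGFR1, including a secreted form that binds ligand without signalling; a count per gene does not tell these forms apart. Its level was 195, 247, 203, 251 and 209 CPM in saline replicates 1 to 5 and 171, 168, 164, 181 and 189 CPM in LPS replicates 1 to 5. The groups did not overlap, but the highest LPS library and the lowest saline library were close. The means were 221 ± 26.2 and 175 ± 10.2 CPM (mean ± SD, n = 5 in each), and the log2 fold change was -0.34 ± 0.09 (SE; by edgeR, adjusted p = 0.0108).

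Flt4 (ENSMUSG00000020357, chromosome 11, 49609263 to 49652739, plus strand) encodes VEGFR3 and was the receptor that rose. Its level was 31.0, 40.9, 29.1, 33.0 and 21.9 CPM in saline replicates 1 to 5 and 61.9, 54.8, 44.8, 53.4 and 61.7 CPM in LPS replicates 1 to 5. Each LPS library lay above each saline library, and saline replicate 5 was the lowest of all. The means were 31.2 ± 6.86 and 55.3 ± 7.05 CPM (mean ± SD, n = 5 in each), and the difference on the log2 scale was 0.83 ± 0.14 (SE; edgeR adjusted p = 0.000441), and 0.73 without saline replicate 5.

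The gene starts of the contrasting genes are shown as 300-base windows of GRCm38.p6 from RefSeq (250 bases before to 50 after a gene's start), for the receptor that fell most, the related receptor that fell least, the receptor that rose and the ligand that rose. They are written 5′ to 3′ on the gene's strand, with GC boxes (GGGCGG or CCGCCC), the TATA box (TATAAA or TTTATA) and the cAMP response element (TGACGTCA) in capitals, both strands searched; these motifs do not overlap each other here. Windows are chr5:75978406-75978705 for Kdr, chr5:147725962-147726261 for Flt1, chr11:49609429-49609728 for Flt4 and chr12:85177264-85177563 for Pgf, the more upstream of its RefSeq starts.
Kdr: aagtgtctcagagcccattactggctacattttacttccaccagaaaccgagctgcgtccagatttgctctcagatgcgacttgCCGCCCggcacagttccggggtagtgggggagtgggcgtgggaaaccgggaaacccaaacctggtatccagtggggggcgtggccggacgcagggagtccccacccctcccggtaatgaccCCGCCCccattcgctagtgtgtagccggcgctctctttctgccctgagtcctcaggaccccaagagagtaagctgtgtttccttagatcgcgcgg
Flt1: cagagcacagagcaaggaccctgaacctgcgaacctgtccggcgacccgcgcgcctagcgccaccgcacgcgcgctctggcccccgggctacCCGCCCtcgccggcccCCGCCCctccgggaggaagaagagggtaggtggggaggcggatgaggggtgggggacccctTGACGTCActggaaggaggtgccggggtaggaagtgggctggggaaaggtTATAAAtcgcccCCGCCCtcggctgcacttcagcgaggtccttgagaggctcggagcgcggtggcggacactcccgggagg
Flt4: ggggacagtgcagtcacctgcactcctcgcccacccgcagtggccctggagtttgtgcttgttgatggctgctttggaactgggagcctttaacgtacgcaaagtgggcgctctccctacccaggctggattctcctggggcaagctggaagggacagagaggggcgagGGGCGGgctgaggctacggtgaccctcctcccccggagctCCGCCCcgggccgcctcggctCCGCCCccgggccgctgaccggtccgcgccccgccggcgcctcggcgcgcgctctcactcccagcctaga
Pgf: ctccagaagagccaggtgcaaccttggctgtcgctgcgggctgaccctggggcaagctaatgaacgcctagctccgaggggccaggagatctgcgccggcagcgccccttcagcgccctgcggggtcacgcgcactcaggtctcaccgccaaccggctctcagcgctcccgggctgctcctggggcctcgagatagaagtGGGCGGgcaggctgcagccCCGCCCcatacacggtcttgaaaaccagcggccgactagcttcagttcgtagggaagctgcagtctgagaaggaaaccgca
All 4 windows held a GC box, with 2 in Kdr, 3 in Flt1, 3 in Flt4 and 2 in Pgf, as did 35.7% of 32851 RefSeq windows of the same length. Of the 4, the Flt1 window alone held a TATA box, at position -31 from the start, and a cAMP response element, at position -81. TATA boxes stood in 13.6% and cAMP response elements in 1.79% of all windows. The ACGTG form of the core of a hypoxia response element, or CACGT, was in 0 of these 4 windows and in 19.6% of all windows. The GCGTG form, or CACGC, was not counted, and it stands in the Kdr, Flt1 and Pgf windows above. Over all 12 windows of the family the ACGTG form was in 1, an internal Vegfa start. This says only that these letters are absent from the other windows. A match is a description of the letters and not a binding site.

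Nrp1 (ENSMUSG00000025810, chromosome 8, 128358604 to 128503363, plus strand) encodes the neuropilin that presents VEGF-A to VEGFR2. Its level was 147, 163, 165 and 165 CPM in saline replicates 1 to 4, with 102 CPM in the fifth saline library, and 70.2, 84.0, 89.4, 81.3 and 118 CPM in LPS replicates 1 to 5. LPS replicate 5 lay above saline replicate 5, so the groups overlapped through that pair alone. Nrp1 fell from 148 ± 26.8 to 88.7 ± 18 CPM (mean ± SD, n = 5 in each), and the difference on the log2 scale was -0.74 ± 0.15 (SE; edgeR adjusted p = 0.00165), and -0.85 without saline replicate 5.

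Nrp2 (ENSMUSG00000025969, chromosome 1, 62703285 to 62818695, plus strand) encodes the neuropilin that partners VEGFR3 on lymphatic endothelium. Its level was 94.6 to 109 CPM with a median of 108 CPM in saline libraries and 77.6 to 109 CPM with a median of 89.3 CPM in LPS libraries, so the groups overlapped. The log2 fold change was -0.17 ± 0.10 (SE; by edgeR, adjusted p = 0.184), and with total count and upper quartile scaling it passed the threshold (-0.44 and -0.33).

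Pgf (ENSMUSG00000004791, chromosome 12, 85166635 to 85177790, minus strand), the VEGFR1 ligand first found in placenta, was the ligand that rose. Its level was 4.85, 7.47, 6.23, 6.14 and 6.60 CPM in saline replicates 1 to 5 and 26.6, 23.1, 45.9, 24.6 and 42.6 CPM in LPS replicates 1 to 5. The groups did not overlap, and saline replicate 5 lay among the other saline libraries. LPS replicates 3 and 5 stood above the other LPS libraries. The means were 6.26 ± 0.945 and 32.6 ± 10.8 CPM (mean ± SD, n = 5 in each), and the difference on the log2 scale was 2.38 ± 0.21 (SE; edgeR adjusted p = 3.06e-06), and 439 of 13864 tested genes had a higher one.

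Vegfa (ENSMUSG00000023951, chromosome 17, 46016993 to 46032369, minus strand) encodes the main ligand of VEGFR2. Its level was 174, 187, 162, 134 and 147 CPM in saline replicates 1 to 5 and 137, 143, 116, 134 and 154 CPM in LPS replicates 1 to 5. The groups overlapped widely. The log2 fold change was -0.23 ± 0.11 (SE; by edgeR, adjusted p = 0.1002), a difference that did not pass with TMM scaling and did pass with total count and upper quartile scaling (-0.51 and -0.39, adjusted p = 0.00312 and 0.00836).

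Vegfb (ENSMUSG00000024962, chromosome 19, 6982473 to 6987651, minus strand) encodes a VEGFR1 ligand linked to fatty acid uptake and to coronary vessel growth. It lay between 171 and 187 CPM in saline and between 157 and 219 CPM in LPS libraries, with LPS replicate 5 the lowest of all 10. Its log2 fold change was 0.11 ± 0.10 (SE; by edgeR, adjusted p = 0.379), and -0.04 and -0.16 with upper quartile and total count scaling, also without passing the threshold.

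The lymphatic ligands both fell. Vegfc (ENSMUSG00000031520, chromosome 8, 54077606 to 54187096, plus strand) was at 8.45, 10.8, 9.65 and 9.96 CPM in saline replicates 1 to 4, at 6.12 CPM in saline replicate 5, and at 6.16, 4.90, 4.05, 7.29 and 3.78 CPM in LPS replicates 1 to 5. Saline replicate 5 lay among the LPS libraries. Its log2 fold change was -0.79 ± 0.21 (SE; by edgeR, adjusted p = 0.00733), and -0.89 without saline replicate 5.

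Vegfd (ENSMUSG00000031380, chromosome X, 164373378 to 164402650, plus strand) was the rarest member, with 189 reads in the saline and 88 in the LPS libraries. Its level was 2.40, 2.17, 2.02, 2.49 and 1.49 CPM in saline replicates 1 to 5 and 1.06 to 1.40 CPM with a median of 1.25 CPM in LPS libraries, without overlap. The log2 fold change was -0.74 ± 0.23 (SE; by edgeR, adjusted p = 0.0180). It missed the threshold when saline replicate 1 or 4 or LPS replicate 4 was left out (adjusted p = 0.0506, 0.0503 and 0.0511), with no filter on low counts (0.0650) and with the replicate number as a block (0.05004).

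**Figure D2:**
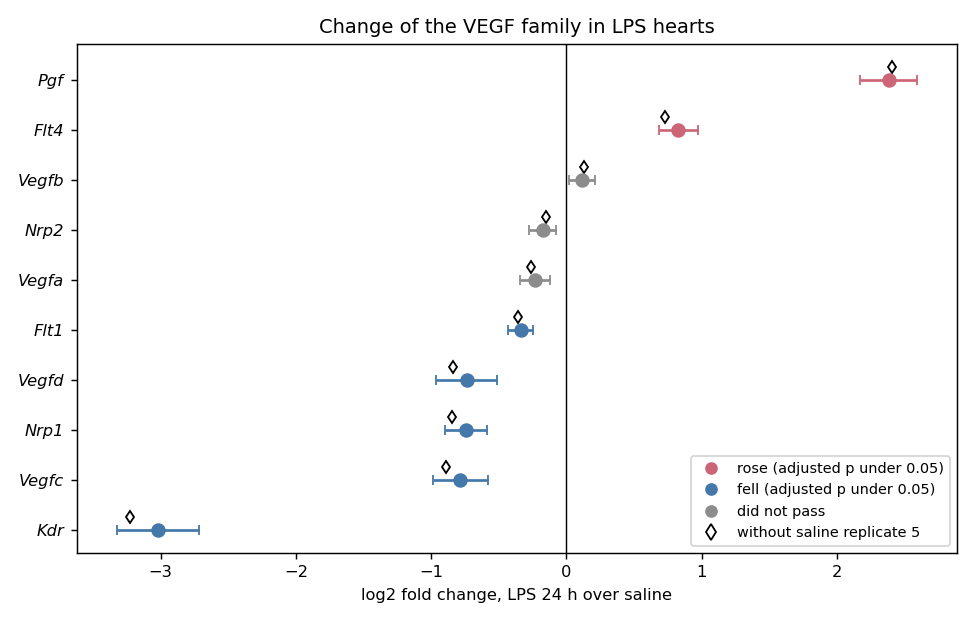
Log2 fold change of each VEGF family gene in LPS over saline hearts (horizontal axis; bars are standard errors from edgeR, n = 5 per group), coloured by call, with the value without saline replicate 5 as an open diamond. Pgf at 2.38 and Kdr at -3.02 are the ends of the range, and leaving out saline replicate 5 moves Kdr to -3.23.

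In FPKM, the authors' deposited unit, which scales reads by gene length and library depth and so lets levels of different genes be compared, the ligands Vegfb and Vegfa led the family in both groups, and the order of the rest changed. In saline hearts the FPKM level was 118 ± 5.41 for Vegfb, 39.5 ± 5.07 for Vegfa, 34.9 ± 12.3 for Kdr, 17.2 ± 1.99 for Flt1, 15.9 ± 2.83 for Nrp1 and 9.22 ± 0.642 for Nrp2 (SD, n = 5). Flt4, Vegfc, Pgf and Vegfd followed at 3.98 ± 0.862, 3.86 ± 0.768, 2.27 ± 0.342 and 0.923 ± 0.170 FPKM. The library ranges of Vegfa and Kdr, of Kdr and Flt1 (through saline replicate 5), of Flt1 and Nrp1, of Flt4 and Vegfc and of Vegfc and Pgf overlapped across mice. Within a library the order could still be regular, with Vegfc above Pgf in each of the 5 saline libraries. In LPS hearts Vegfb was at 130 ± 14.9 and Vegfa at 34.3 ± 3.74 FPKM. Flt1, Pgf, Nrp1, Nrp2 and Flt4 were at 13.9 ± 0.898, 12.1 ± 4.01, 9.74 ± 2.04, 8.34 ± 1.15 and 7.22 ± 0.969 FPKM, each overlapping its neighbour. Kdr, of rank 3 in saline hearts, was of rank 8 in LPS hearts at 4.38 ± 0.702 FPKM, below each Flt4 value, and was followed by Vegfc and Vegfd at 2.29 ± 0.640 and 0.564 ± 0.0633 FPKM.

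**Figure D3:**
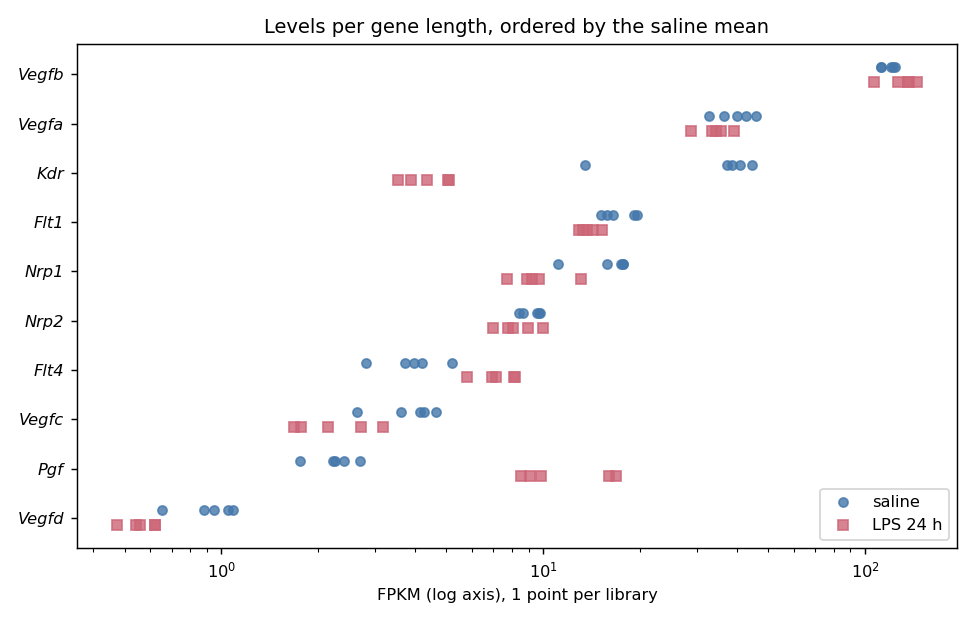
FPKM of each gene on a log axis, 1 point per library (blue circles saline, red squares LPS), genes ordered by their saline mean. Pgf moves from 2.27 to 12.1 FPKM on average and Kdr from 34.9 to 4.38 FPKM, so that in LPS hearts Flt1 stands above Kdr in each library.

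Ratios within a library do not depend on how libraries are scaled. The ratio of Flt1 to Kdr by FPKM was 0.407, 0.431, 0.388 and 0.505 in saline replicates 1 to 4, with 1.22 in the fifth saline library, and 3.13, 3.45, 2.55, 4.06 and 2.99 in LPS replicates 1 to 5. Kdr thus exceeded Flt1 per length in saline replicates 1 to 4, and Flt1 exceeded Kdr in the other 6 libraries. The log2 ratio differed by 2.59 between the groups (two-sided exact permutation p = 0.00794, the smallest that 5 against 5 libraries allow, adjusted p = 0.0175 over 11 ratios). Without saline replicate 5 it differed by 2.89. The ratio of Pgf to Vegfa was 0.0413 to 0.0676 in saline and 0.239 to 0.585 in LPS libraries, a log2 difference of 2.56 (exact p = 0.00794, adjusted p = 0.0175). The ratios of Nrp2 to Nrp1, Vegfb to Vegfa and Vegfc to Vegfa had log2 differences of 0.56, 0.33 and -0.57 and did not pass after adjustment (exact permutation test, adjusted p = 0.0546, 0.105 and 0.0582). Without saline replicate 5 the Nrp2 to Nrp1 and Vegfc to Vegfa ratios passed, at 0.71 and -0.67 (adjusted p = 0.0125 and 0.0388).

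The receptors were set beside other endothelial genes, since in whole tissue fewer cells of a type and less RNA per cell cannot be told apart. Of 15 endothelial markers 13 fell and 1 rose (Robo4, a receptor of vessel stability), with or without saline replicate 5, and their median log2 fold change was -0.51. Over all tested genes 21.0% fell and 18.9% rose, shares that also stand beside the marker counts that follow. The endothelial markers summed to 2331 ± 415 CPM in saline hearts, from 1718 CPM in saline replicate 5 to 2854 CPM. In LPS hearts the sum was 1323 ± 128 CPM, from 1227 to 1543 CPM (two-sided exact permutation p = 0.00794, adjusted p = 0.0437 over 11 marker lists). The most abundant of them, Fabp4, a fatty acid binding protein of capillaries, and Cdh5, the adhesion protein of endothelial junctions, fell from 405 to 141 and from 292 to 205 CPM. Egfl7, which encodes a secreted endothelial protein, fell from 54.6 to 5.28 CPM, with a log2 fold change of -3.36 beside -3.02 for Kdr, a difference not tested. It was the lowest marker in LPS hearts. Cldn5, which encodes a tight junction protein, fell by 1.80, a call lost in limma voom (adjusted p = 0.0546).

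Against the sum of these markers the 5 receptors separated. The sum weights each marker by its abundance, and abundant markers did not fall alike. Fabp4, Ptprb, Pecam1 and Tek fell by 1.52, 2.08, 1.13 and 1.68 on the log2 scale. Cdh5, Eng, Tie1, Ly6c1 and Cd34 fell by 0.51, 0.50, 0.49, 0.43 and 0.37. Flt1 fell by 0.34 and Nrp1 by 0.74, so their ratios can depend on which markers carry the sum. Other weightings were not tested, apart from leaving out Fabp4 and Cdh5. The ratio of Kdr to the markers was 0.134 to 0.146 in saline replicates 1 to 4, with 0.0669 in the fifth saline library, while LPS libraries ranged from 0.0237 to 0.0329, so that Kdr was lower relative to the summed markers, with a log2 difference of -2.12 (two-sided exact permutation p = 0.00794, adjusted p = 0.0175 over 11 ratios). Flt1, which fell in level, had a higher ratio in LPS hearts, with a log2 difference of 0.47 (adjusted p = 0.0249), although saline replicate 5 at 0.122 lay above LPS replicate 1 at 0.111. The Flt4 ratio was higher by 1.65 without overlap (adjusted p = 0.0175), and the Nrp2 ratio by 0.62 (adjusted p = 0.0249), with saline replicate 5 above LPS replicate 4. The Nrp1 ratio had a log2 difference of 0.06 (exact p = 0.690, adjusted p = 0.690), with 0.0570 to 0.0686 in saline and 0.0455 to 0.0914 in LPS libraries. Without saline replicate 5 the log2 differences were -2.33 for Kdr, 0.56 for Flt1 and 0.75 for Nrp2.

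**Figure D4:**
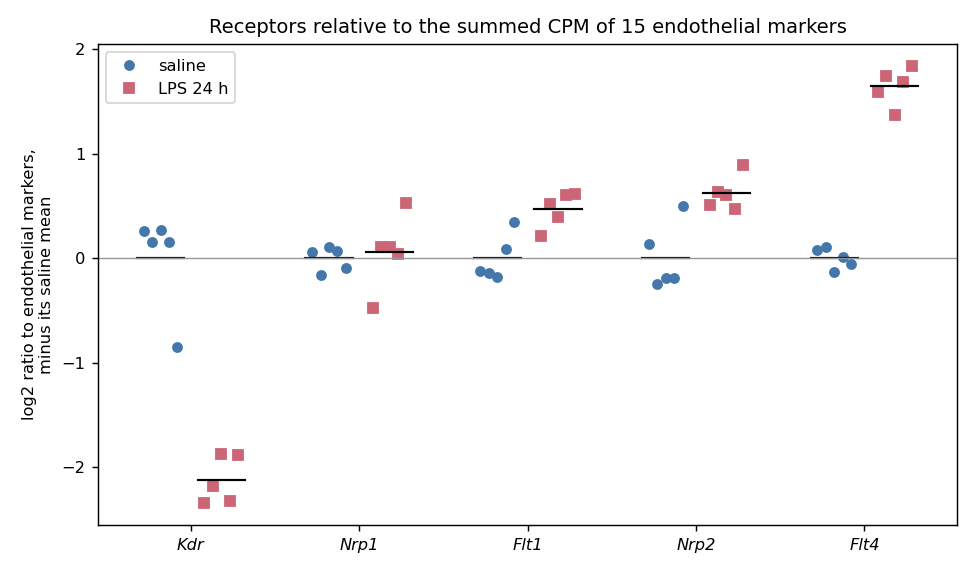
Log2 ratio of each VEGF receptor or neuropilin to the summed CPM of 15 endothelial markers, with the saline mean of each gene set to 0 (vertical axis), 1 point per library and a line at each group mean. In LPS hearts Kdr lies at -2.12 and Flt4 at 1.65 on average, while Nrp1 lies on both sides of 0.

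Markers of lymphatic endothelium, where Flt4 is best known, did not pass the test as a sum. They summed to 233 ± 17.4 CPM in saline hearts, against 216 ± 26.1 CPM after LPS (exact permutation test, p = 0.254, adjusted p = 0.4656). Of 9 tested, 2 fell and 2 rose. Prox1, the transcription factor of lymphatic identity that cardiomyocytes also express, fell from 57.9 to 32.04 CPM and the hyaluronan receptor Lyve1, also on macrophages, from 44.9 to 31.6 CPM. Pdpn, which encodes podoplanin, and Itga9, an integrin subunit with roles in lymphatic valves, rose by 0.71 and 0.38 on the log2 scale (edgeR adjusted p = 0.0385 and 0.0310). The ratio of Flt4 to the lymphatic sum was higher in LPS hearts by 0.96 on the log2 scale (exact permutation test, p = 0.00794, adjusted p = 0.0175). Itga9, whose mean level went from 77.9 to 101 CPM, was the largest part of that sum, followed by Prox1 and Lyve1. Reln, Ccl21a, Tbx1 and Stab2 added little, with saline means of 8.19, 3.37, 1.14 and 0.693 CPM. The sum and the ratio thus rest mainly on Itga9, Prox1 and Lyve1 and need not follow lymphatic endothelium. Markers of pericytes and smooth muscle summed to 1615 ± 108 CPM in saline hearts, against 1318 ± 83.5 CPM after LPS (exact p = 0.00794, adjusted p = 0.0437; 3 of 9 tested fell), and those of macrophages and monocytes to 608 ± 90.1 and 471 ± 82.1 CPM (exact p = 0.0397, adjusted p = 0.109). The leading pericyte markers Rgs5 and Abcc9 were at 847 and 343 CPM in saline and 696 and 323 CPM in LPS hearts. Of 10 macrophage markers 4 fell and 1 rose. The called share was 44.4% of lymphatic, 33.3% of pericyte and smooth muscle and 50% of macrophage markers, beside 39.9% of all tested genes. Neutrophil markers summed to 7.33 ± 9.95 and 26.5 ± 11.9 CPM (exact p = 0.0317, adjusted p = 0.109), with Elane at 0 in all 10 libraries. Of 4 tested neutrophil markers 2 rose, and 4 of 4 without saline replicate 5, where the sum had an adjusted p of 0.0582 (exact p = 0.0159). Fibroblast, lymphocyte and platelet, adipocyte and mesothelial, and red blood cell lists had adjusted p from 0.475 to 0.571. The part of these cell types in the receptor values was not tested.

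Genes that carry the signal of VEGF receptors into the cell went both ways, with 9 rising and 8 falling of 34 tested and a median log2 fold change of 0.05. Over all tested genes 18.9% rose and 21.0% fell, the shares that stand beside this and the list counts that follow. Map2k1, a kinase of the ERK cascade, rose from 46.8 ± 5.76 to 133 ± 12.2 CPM (log2 fold change 1.51). Shb, an adaptor of VEGFR2, and Pik3r1, a regulatory subunit of PI 3-kinase, rose by 1.16 and 0.87. Mapk3, which encodes ERK1, had the largest fall, from 56.2 ± 11.5 to 19.1 ± 5.004 CPM (-1.56). The endothelial nitric oxide synthase gene Nos3 and the VEGFR2 effector gene Plcg1, named after their values were seen, fell by 1.51 and 1.06.

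Phosphatases, partners and negative regulators of the receptors changed in 18 of 25 tested members, 10 upward and 8 downward (median 0.11). Ptprb, which encodes the endothelial phosphatase VE-PTP that restrains VEGFR2 and TIE2, fell from 257 ± 51.5 to 60.8 ± 14.0 CPM (-2.08 ± 0.18 on the log2 scale, SE; edgeR adjusted p = 2.16e-06). Ptprj, another phosphatase that acts on VEGFR2, rose from 14.6 ± 4.53 to 52.4 ± 3.82 CPM (1.84). The ERK pathway inhibitor Spry4 and the phosphatase Ptpn1 rose by 1.66 and 1.64.

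Secreted and surface proteins listed for binding or limiting VEGF had 4 rising and 5 falling of 18 tested (median -0.16). That role is not established for each of them, Endou and Ccn1 included. Sdc4, a heparan sulphate proteoglycan, rose from 29.8 ± 24.9 to 250 ± 28.5 CPM (log2 fold change 3.07, and 3.74 without saline replicate 5). The antiangiogenic thrombospondin gene Thbs1, named after its values were seen, rose from 70.5 ± 59.1 to 448 ± 93.7 CPM (2.67, and 3.24 without saline replicate 5). Thbs2, which encodes a related thrombospondin, fell by 1.54, Endou, an endoribonuclease, by 1.28, and Ccn1, a matricellular protein listed as Cyr61, by 1.16. Of 13 tested genes around the processing of VEGF-C and VEGF-D, 4 rose and 2 fell (median -0.05). Plat, the tissue plasminogen activator, rose by 1.19, and Adamts3, the protease that with CCBE1 activates VEGF-C, rose from 3.30 ± 0.706 to 6.02 ± 1.14 CPM (0.87). Adamts14 rose by 1.03, which failed the threshold in 7 of the fits that left out a library (saline 2, 3 or 4, LPS 1, 2, 3 or 5; adjusted p up to 0.123), with upper quartile and total count scaling (0.0763 and 0.116) and in limma voom (0.106), and Mmp9 fell by 1.21. Plg, the plasminogen gene, was at 0 CPM in both groups.

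Semaphorins, plexins and their effectors, the other partners of neuropilins, had 5 rising and 2 falling of 14 tested (median 0.14). Sema3a, a repulsive ligand of Nrp1, rose from 2.80 ± 1.02 to 7.14 ± 1.71 CPM (log2 fold change 1.35), and Sema3g, an endothelial ligand of Nrp2, fell from 29.8 ± 7.80 to 8.72 ± 2.71 CPM (-1.77). Rhoj rose by 1.62. Rnd1 rose by 4.38, and by 7.24 without saline replicate 5, but missed the threshold when saline replicate 1 or 2 was left out (edgeR adjusted p = 0.0506 and 0.0529).

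Oxygen-sensing genes, which control Vegfa through hypoxia-inducible factors, had 4 rising and 3 falling of 14 tested (median 0.10). Hif1a, the inducible subunit, rose from 73.6 ± 16.4 to 276 ± 66.5 CPM (log2 fold change 1.91), and Vhl, which targets it for breakdown, fell from 12.1 ± 1.78 to 6.63 ± 1.46 CPM (-0.86). Hif3a rose by 1.16 and Cul2, a scaffold of the VHL ligase, by 0.39, a call lost with upper quartile and total count scaling (adjusted p = 0.0750 and 0.317). Hif3a missed the threshold when saline replicate 1, 2 or 3 or LPS replicate 2 was left out (adjusted p up to 0.0857). Hypoxia-responsive genes other than Vegfa had 7 rising and 5 falling of 23 (median 0.18). Adrenomedullin (Adm) and the glucose transporter Slc2a1 rose by 1.61 and 0.93, and Ankrd37, a HIF target, fell by 3.61, to 0.176 CPM. Of 20 regulators of Vegfa expression outside the HIF system 10 rose and 3 fell (median 0.52). Zfp36, a protein that destabilizes AU-rich mRNAs, the AP-1 subunit Fos and Cebpb rose by 2.44, 2.43 and 1.82, with Fos at 3.16 without saline replicate 5, and Zfp36l2, a relative of Zfp36, fell by 1.21. Vegfa did not pass the threshold beside these changes.

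Endothelial genes that VEGF is known to induce had 11 rising and 4 falling of 26 tested (median 1.48), Pgf itself among them, or 14 and 5 without saline replicate 5. Over all tested genes 18.9% rose and 21.0% fell, or 21.0% and 22.9% without that library. The adhesion molecule genes Sele, Icam1 and Vcam1, named after their values were seen, had log2 fold changes of 3.95, 2.72 and 2.77 that did not pass (edgeR adjusted p = 0.0769, 0.131 and 0.0778), and rose by 8.04, 5.83 and 5.13 without that library. Ptgs2, the inducible cyclooxygenase, rose by 4.09 (6.44 without saline replicate 5), the urokinase receptor Plaur by 3.79 (4.41 without it) and the protease inhibitor Tfpi2 by 3.65. Esm1, a tip cell gene, fell from 2.50 ± 0.896 to 0.329 ± 0.108 CPM (-2.89). Dll4 fell by 1.69, and Apln and Cd34, named after their values were seen, by 0.96 and 0.37. Cd34 lost its call when saline replicate 1 or 2 or LPS replicate 2 or 4 was left out. Whether VEGF drove any of these changes was not tested.

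Transcription factors that control the VEGF receptors had 6 rising and 13 falling of 27 tested (median -0.67), or 6 and 16 without saline replicate 5. Hey1, a Notch target, fell from 12.3 ± 5.38 to 1.00 ± 0.584 CPM (log2 fold change -3.63), Sox17, a factor of arterial endothelium, from 13.0 ± 5.64 to 1.11 ± 0.499 CPM (-3.51) and Sox18 from 38.0 ± 17.6 to 3.76 ± 4.53 CPM (-3.31, and -4.01 without LPS replicate 5). Etv6, a repressor of the ETS family, rose from 26.1 ± 5.45 to 96.9 ± 11.2 CPM (1.89). Gata2, Elk3, Fli1 and Erg, named after their values were seen, fell by 2.67, 2.78, 1.36 and 1.17. Other angiogenic ligands and receptors had 8 rising and 15 falling of 30 (median -0.39), among them the angiopoietin receptor Tek (-1.68), the Notch ligand Dll4 (-1.69) and Pdgfb (-1.64), which recruits pericytes. The call of Pdgfb was lost in 8 of the 10 fits without a single library (adjusted p up to 0.104). Angptl4, a lipase inhibitor, rose by 2.35. Tek and Ptprb also stand in the endothelial marker list.

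**Figure D5:**
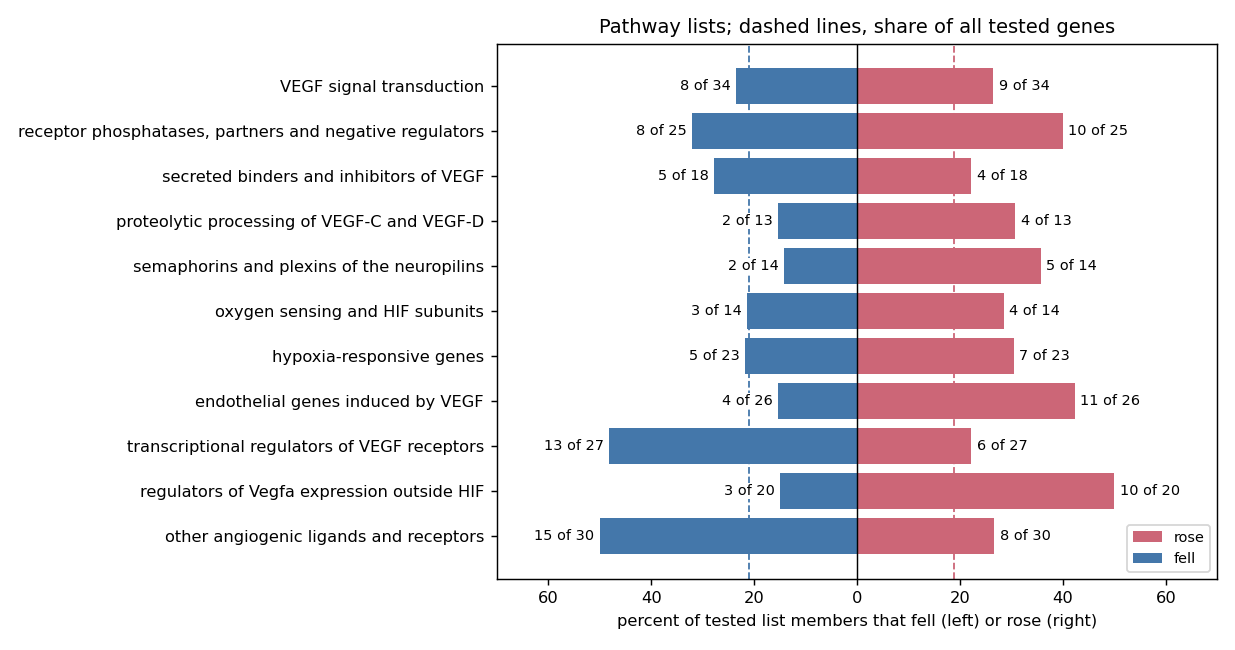
Share of tested members of each pathway list that rose (red, right) or fell (blue, left) in LPS hearts by edgeR at an adjusted p under 0.05 (horizontal axis, percent), with counts beside the bars; dashed lines mark the share of all tested genes, 18.9% rising and 21.0% falling. The regulators of Vegfa reach 10 of 20 rising, and the transcription factors of the receptors and the other angiogenic genes reach 13 of 27 and 15 of 30 falling.

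Over the 10094 genes that averaged 5 CPM or more, profiles over the 10 libraries were closest to that of Kdr in Card10, Rarg and Rflnb, with root mean square differences of 0.12, 0.22 and 0.22 in centred log2 CPM. Their log2 fold changes were -3.15, -2.97 and -2.82. The nearest to Pgf were Adamts9, a metalloprotease gene, Rab32 and 2210407C18Rik (0.27, 0.28 and 0.28), with log2 fold changes of 2.28, 2.14 and 2.47. Il6ra, Mcm6 and Dcbld2 were nearest to Flt4 (0.16, 0.16 and 0.17), Klhl20, Dgcr8 and Mtmr10 to Nrp1 (0.07, 0.09 and 0.09) and Chd9, Hmgb1 and Rala to Flt1 (0.06, 0.06 and 0.08). For Vegfc they were Smco4, Arsk and Ctps2 (0.15, 0.16 and 0.17), and for Vegfd Rab23, Npr1 and Jade1 (0.08, 0.12 and 0.12).

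The authors' deposited table of Reactome terms lists 49 differential genes among 97 for the term on VEGF signalling, 24 up and 25 down, with an adjusted p-value of 0.0466. The authors' deposited table places Pgf and Flt4 among the genes up and Vegfc, Vegfd, Kdr, Flt1 and Nrp1 among those down, the 7 members called here. For the VEGFA-VEGFR2 pathway the authors' deposited table gives 22 genes up and 21 down among 89, with an adjusted p-value of 0.121. For semaphorin interactions it gives 11 up and 13 down among 51, with 0.353. For the cellular response to hypoxia the authors' deposited table gives 28 genes up and 6 down among 65, with an adjusted p-value of 0.0726. By the edgeR test used here 39.9% of all tested genes passed.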

How the data were processed

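Per the labels' protocols, hearts were flash frozen, RNA was extracted with Trizol and libraries were made with an Illumina TruSeq RNA kit. The authors deposited raw read counts per gene, 1 column per library, and FPKM in the same table. Bowtie 0.12.2 and mm9 appear, per the submitters' processing notes, without a stated use. No source used here states the counting tool, annotation or strandedness. Of 54532 genes, 53585 have the start and end of GENCODE M21, so coordinates are given as GRCm38, and the deposited length of each VEGF gene equals its exons there. No other gene with reads shares exon bases with the 10 genes. The authors' deposited Reactome table holds p-values and adjusted p-values per term, and no source used here states its method. Of 2 other FPKM files, 20 per-library columns, those for LPS named for 3 h, were not used.

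The test was run in edgeR 4.0.16 under R 4.3.3 (filterByExpr with minimum count 10 and total 15, TMM scaling, robust quasi-likelihood F-test, Benjamini-Hochberg adjustment over 13864 genes). Standard errors were derived from the F statistic. CPM are counts over the effective library size. TMM factors ranged from 1.004 to 1.15 in saline and from 0.829 to 0.958 in LPS libraries, without overlap. Adjusted p-values of fold changes in the text are edgeR's. In simulated data with the real means and sizes, over 13701 genes for this comparison, 14 of 50 genes were recovered at 1.5-fold, 37 at 2-fold, 48 at 4-fold and 50 at 8-fold, with 4 of 153 calls false. Only 50 genes were changed at each fold, whereas 39.9% of tested genes passed in the real data. The recovery and the false calls therefore need not carry over to the real comparison. Ratios and marker sums were compared by exact permutation over 252 assignments. P-values measure the spread between these libraries, taken as 1 mouse each.

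The members and lists were chosen with earlier results of these data known. The genes named are the 10 members and, from each pathway list, the 3 largest called changes in the more frequent direction and the largest in the other, averaging at least 1 CPM. From cell type lists they are the 2 most abundant markers, and per called member the 3 nearest profiles among genes of 5 CPM or more (prior count 2). A gene of the hypoxia-responsive list that this rule picks is not reported here. Other markers named, and genes so described in the text, were chosen after their values were seen. Alternatives were other scalings (RLE, upper quartile, total count, or TMM leaving out the 20 most abundant genes), other filters, DESeq2 1.42.0, limma 3.58.1 voom, a replicate block and leaving out each library. Libraries with the same number did not deviate together in every pair, so the numbers were not taken as pairs. Figures were drawn with matplotlib 3.10.9.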

Additional observations from a re-analysis of the deposited data

Results flagged for a closer look

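In 64 groups of 5 libraries, 6 had a library far from the other 4 by Dixon's criterion, which chance gives in about 1 in 20 groups. Saline replicate 5 was the far library in 4 of them. Its Kdr level was 115 CPM where the other saline libraries lay between 320 and 382 CPM. Its log2 ratio of Kdr to the endothelial markers was -3.90, with the others between -2.90 and -2.78, and its log2 ratio of Flt1 to Kdr was 0.28, with the others between -1.37 and -0.99. Its neutrophil markers summed to 25.01 CPM against 1.35 to 4.07 CPM. LPS replicate 1 was the far library in the other 2, with a log2 ratio of Nrp2 to Nrp1 of 0.22 against -0.40 to -0.25 and an endothelial marker sum of 1543 CPM against 1227 to 1307 CPM.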

How the results depend on the processing

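Under 19 alternatives the number of rising members stayed at 2 and that of falling members between 4 and 7. It was 7 with upper quartile and total count scaling, where Vegfa and Nrp2 also passed. Vegfb reversed without passing, to -0.045 and -0.16, under these scalings. Vegfd lost its call with the replicate block, with no filter and without saline replicate 1 or 4 or LPS replicate 4. With the replicate block, 2 members rose and 4 fell, and Kdr had a log2 fold change of -2.94. The correlations of same-numbered libraries' deviations ran from -0.07 to 0.18, so the block does not follow from the design. Among pathway genes picked by rule and endothelial markers named, Angptl4, Cdh5, Cldn5, Dll4, Fos, Ly6c1, Pdgfb and Sox18 lost their call with it. Leaving out single libraries, the Nrp2 to Nrp1 ratio ran from 0.45 to 0.71, the Vegfc to Vegfa ratio from -0.71 to -0.42 and the Vegfb to Vegfa ratio from 0.23 to 0.45, each passing in some fits. The ratios of Kdr, Flt1, Flt4 and Nrp2 to endothelial markers, of Flt4 to lymphatic markers, of Flt1 to Kdr and of Pgf to Vegfa kept direction and call in all fits run, also without Fabp4 and Cdh5. Sums of endothelial and of pericyte and smooth muscle markers passed in the fits without a saline library. They missed the adjusted threshold in each of the 5 fits without an LPS library (up to 0.0873), with the exact p at 0.0159. In both sums each LPS library lay below each saline library, so the misses did not come from overlap of the groups. With total count scaling the lymphatic, cardiomyocyte, fibroblast, macrophage and adipocyte sums also passed, all lower in LPS hearts. With total count scaling 10 of 22 list counts moved by over 1.5 times. Vegfd, with 88 reads in LPS hearts, is the member that depth limits most.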
